A study of Mus musculus with 6 samples.

Results

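The effector cytokines of induced regulatory T cells that no longer showed the Foxp3 reporter were followed in 3 sorted CD4 T cell populations that had shared their hosts. The cytokines were Il17a, Il17f, Il21, Il22, Ifng, Il4, Csf2 and Il3, chosen by name, with every probe set annotated to them. Of these 8 genes 7 had an annotated probe set, giving 8 of the 45037 non-control probe sets on the Affymetrix Mouse430_2 array; Il17f had none annotated here, so it has no value. The hosts were BALB/c Rag1-/- mice, which lack T and B cells of their own, and all had received wild-type natural regulatory T cells (nTreg) together with 500000 wild-type regulatory T cells induced in culture (iTreg). After 125 days, cells of spleens and mesenteric lymph nodes from 14 mice were pooled, stained for CD4 and sorted. EGFP reports Foxp3, the master transcription factor of regulatory T cells, and the surface allele Thy1.1 tells cells of iTreg origin from the rest. nTreg arrays hold EGFP+ Thy1.1- cells, iTreg arrays hold EGFP+ Thy1.1+ cells, and ex-iTreg arrays hold EGFP- Thy1.1+ cells, that is, cells of iTreg origin without the reporter. Each population had 2 arrays, each from a replicate pool, and nothing in the labels shows that the pools of a population came from separate mice. The p-values therefore reflect pool-to-pool spread alone, which may be technical. The protocol text that all samples share also describes injecting cells into the peritoneal cavity of mice with colitis, and no age or sex is given.

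Values are log2 expression from RMA, a method that reduces the probes of each probe set to a single background-corrected and normalised value per array. The array medians lay between 5.47 and 5.49. The Foxp3 probe set read 3.99 to 4.29 in all 6 arrays, below the median of all values, so it cannot check the sort. Il2ra, the high-affinity interleukin-2 receptor chain that regulatory T cells carry, fell by 3.18 from iTreg to ex-iTreg arrays (adjusted p = 6e-06, limma). All 13 measured T cell identity genes lay above that median in every population, Cd4 at means of 8.89, 9.03 and 9.19 and Cd3e at 10.97, 10.93 and 10.44 in nTreg, iTreg and ex-iTreg arrays. From iTreg to ex-iTreg arrays 3 of them were called higher (Trat1, Cd28 and Zap70) and 3 lower (Cd3e, Cd2 and Cd6), and 5 and 5 against nTreg arrays. With single arrays left out, as few as 3 and 2 were called from iTreg and 2 and 2 against nTreg arrays. The Cd6 call from iTreg was lost whichever iTreg or ex-iTreg array was left out. Of the 11024 genes tested over the whole array, 15.6% were called higher and 21.0% lower from iTreg to ex-iTreg. Against nTreg arrays these shares were 18.4% and 19.0%.

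Effector cytokines are the secreted proteins by which CD4 T cells direct other cells. Il17a and Il17f encode the signature cytokines of Th17 cells, which act on epithelial and stromal cells; Il21 encodes a helper cytokine for B cells and Th17 cells; Il22 encodes a cytokine that acts on epithelial barriers. Ifng encodes the Th1 cytokine that activates macrophages, Il4 the Th2 cytokine that drives B cell class switching, and Csf2 and Il3 encode growth factors of myeloid cells. In regulatory T cells Foxp3 restrains such genes, and loss of Foxp3 is known to be accompanied by their expression in some settings.

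The start regions of 3 of these genes are shown because their transcripts were the ones read by a probe set of their own and called in all 3 comparisons below. Each window covers the 250 bases before the start that RefSeq annotates on GRCm38.p6: Il17a at chr1:20730655-20730904, plus strand; Il21 at chr3:37232637-37232886, minus strand; Ifng at chr10:118440796-118441045, plus strand. Sequences run 5′ to 3′ on the gene's strand, and capitals mark matches to short motifs searched on both strands.
Il17a: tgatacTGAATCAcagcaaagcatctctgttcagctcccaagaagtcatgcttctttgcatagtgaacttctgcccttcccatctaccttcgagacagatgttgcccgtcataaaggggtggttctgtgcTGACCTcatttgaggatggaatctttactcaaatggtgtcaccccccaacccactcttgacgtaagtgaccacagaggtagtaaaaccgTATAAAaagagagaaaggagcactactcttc
Il21: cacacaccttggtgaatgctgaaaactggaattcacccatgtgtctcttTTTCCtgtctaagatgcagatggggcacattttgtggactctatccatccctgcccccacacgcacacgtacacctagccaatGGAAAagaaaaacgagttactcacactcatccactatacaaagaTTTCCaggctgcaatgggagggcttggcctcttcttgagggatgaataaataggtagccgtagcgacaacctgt
Ifng: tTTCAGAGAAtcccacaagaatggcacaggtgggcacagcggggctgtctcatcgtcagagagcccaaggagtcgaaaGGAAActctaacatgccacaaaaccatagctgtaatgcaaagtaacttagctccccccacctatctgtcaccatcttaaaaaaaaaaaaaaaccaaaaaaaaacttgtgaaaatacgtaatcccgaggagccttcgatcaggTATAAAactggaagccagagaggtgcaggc
The letters searched were GGAAA (the core bound by NFAT factors), TGANTCA (AP-1-like), AGGTCA (the ROR element), TTCNNNGAA (STAT), GGTGTGA (a T-box site) and TATAAA (the TATA box). N stands for any base, so TGANTCA is looser than the AP-1 consensus, and its match in the Il17a window reads TGAATCA. No marked matches overlap in these windows. The Il17a window held TGANTCA 244 bases before the start, AGGTCA on the reverse strand at 120 and TATAAA at 31. The Il21 window held GGAAA 3 times, at 201, 118 and 74 bases before the start, the first and the last on the reverse strand. The Ifng window held TTCNNNGAA at 249, GGAAA at 172 and TATAAA at 30. Among all 32851 promoter windows of the same length, 55.6% held GGAAA, 6.75% TGANTCA, 14.0% AGGTCA, 7.02% TTCNNNGAA, 3.33% GGTGTGA and 12.4% TATAAA. The Il17f window also held AGGTCA, 58 bases before its start. A match is a string of letters and not a measured binding site.

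RMA gives no detection call, so background was set in 2 ways. A population mean at or below 5.48, the median of all values, was taken as near background. The second level was the 95th percentile of 96 probe sets of 56 genes restricted to tissues such as liver, brain, eye, muscle and testis, which was 6.53 in nTreg, 6.64 in iTreg and 6.71 in ex-iTreg arrays. Of those reference probe sets 78.1%, 76.0% and 77.1% lay at or under 5.48, and the highest, of Mbp, reached 11.06 in ex-iTreg arrays, so neither level is a detection limit for a single probe set. Of the 24 means (8 cytokine probe sets in 3 populations), 16 were near background, and 18 were at or under the second level. In nTreg arrays the Ifng probe set alone was above 5.48, in iTreg arrays Ifng and Il17a were, and in ex-iTreg arrays Ifng, Il17a, the main Il21 probe set, the Il22 probe set and, at a mean of 5.49, Csf2. Il4, Il3 and the second Il21 probe set were near background in all 3 populations.

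**Figure D1:**
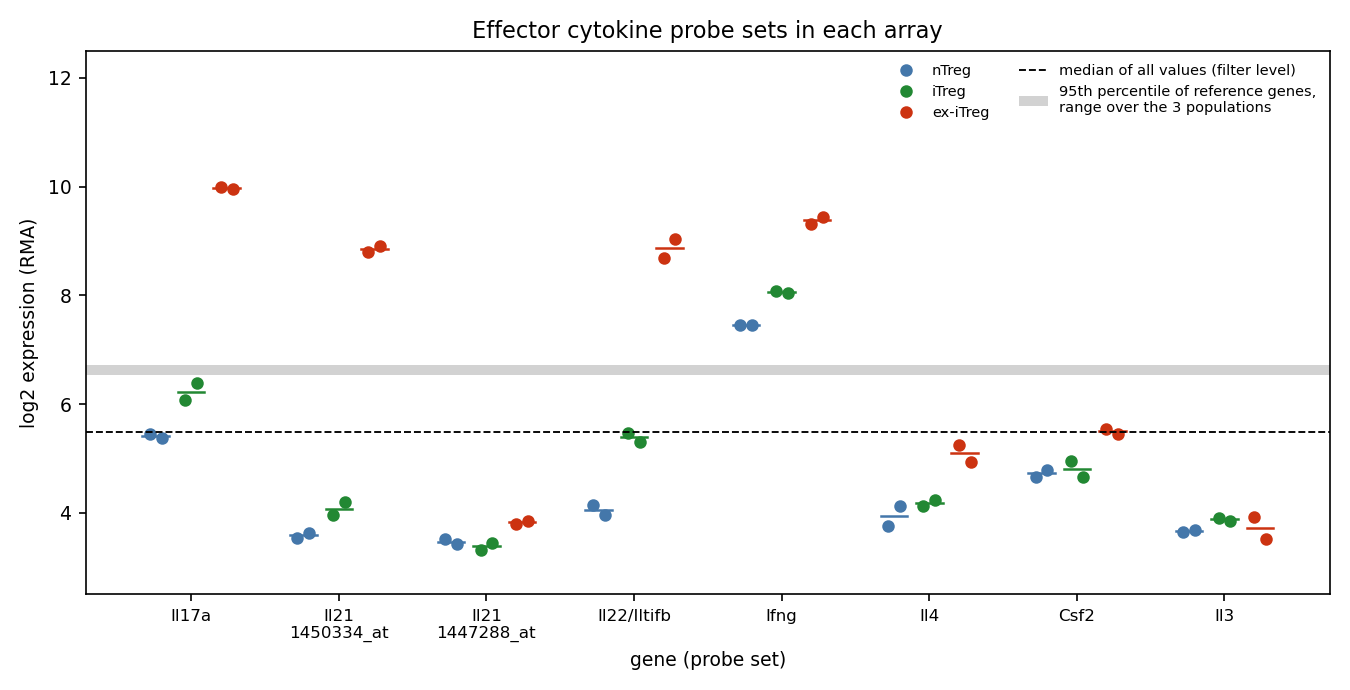
Log2 expression (RMA) of each cytokine probe set (x axis) in each of the 6 arrays. Points are arrays, coloured by population, short lines are means of 2 arrays, the dashed line is the median of all values (5.48) and the grey band spans the 95th percentiles of the tissue-restricted reference genes (6.53 to 6.71). Ex-iTreg points of Il17a, Il21 (1450334_at), Il22/Iltifb and Ifng lie above the band, while Il4, Csf2, Il3 and Il21 1447288_at lie under it in every population.

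Il17a, Il21, Il22/Iltifb and Ifng were higher in ex-iTreg arrays than in either population with the Foxp3 reporter. Ifng was also measurable in nTreg and iTreg arrays, whereas Il21 and Il22/Iltifb were near background there. Tested probe sets were those above 5.48 in at least 2 of the 6 arrays (23505 in all), and 4 of the 8 cytokine probe sets passed. The Il21 and Il22 probe sets passed through their ex-iTreg arrays alone, so their calls follow in part from the filter. All 4 were called higher in ex-iTreg than in iTreg arrays, where 17.7% of tested probe sets were called higher. The same 4 were called higher in ex-iTreg than in nTreg arrays (18.1% of all) and in iTreg than in nTreg arrays (14.6% of all). At least 2-fold higher were 1.71%, 1.96% and 0.851% of tested probe sets in these comparisons. The comparisons share arrays, so their values are given side by side. In pooled RNA, fewer cells that express a gene and less RNA per cell cannot be told apart.

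Il17a read 5.45 and 5.38 in the nTreg arrays, 6.08 and 6.38 in the iTreg arrays and 9.99 and 9.96 in the ex-iTreg arrays. The 3 populations did not overlap, and both ex-iTreg arrays stood far above the others. From iTreg to ex-iTreg Il17a rose by 3.75 ± 0.10 (SE from limma; 95% interval 3.49 to 4.0; adjusted p = 9.46e-06). From nTreg to iTreg it rose by 0.81 ± 0.10 (0.56 to 1.06; adjusted p = 0.00298). The nTreg mean of 5.42 was near background and the iTreg mean of 6.23 was under the second level of 6.64, so no fold change is given for Il17a. Against nTreg arrays the ex-iTreg arrays were higher by 4.56 (4.30 to 4.81; adjusted p = 1.88e-06).

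Il21 probe set 1450334_at read 3.54 and 3.63 in nTreg, 3.96 and 4.19 in iTreg and 8.80 and 8.91 in ex-iTreg arrays. It was thus at background in the populations that kept the Foxp3 reporter and well above both background levels in ex-iTreg arrays. Its rises of 4.78 ± 0.10 from iTreg to ex-iTreg (4.55 to 5.02; adjusted p = 5.4e-06, limma) and of 5.27 from nTreg to ex-iTreg (5.04 to 5.50; adjusted p = 1.13e-06) start from readings at background, so they are differences of RMA values and not fold changes of the transcript. The difference of 0.49 ± 0.10 between iTreg and nTreg arrays (adjusted p = 0.0135) compares readings that are both near background. That call was lost without nTreg replicate 1 (0.44, adjusted p = 0.056) or without iTreg replicate 2 (0.37, adjusted p = 0.0622). The second Il21 probe set, 1447288_at, disagreed with the first: it read 3.31 to 3.84 over all 6 arrays, under both levels everywhere and with the iTreg and nTreg arrays overlapping. Its ex-iTreg arrays, at 3.80 and 3.84, were its highest.

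The Il22 signal came from a probe set annotated to both Il22 and Iltifb, a near-identical neighbouring copy, and the genes cannot be told apart here. It read 4.15 and 3.96 in nTreg, 5.46 and 5.31 in iTreg and 8.69 and 9.04 in ex-iTreg arrays, with no overlap between populations. It rose by 3.48 ± 0.13 from iTreg to ex-iTreg (3.15 to 3.80; adjusted p = 2.36e-05, limma) and by 4.81 from nTreg to ex-iTreg (4.48 to 5.13; adjusted p = 3.76e-06). Its rise of 1.33 ± 0.13 from nTreg to iTreg (1.01 to 1.66; adjusted p = 0.00128) ended at a mean of 5.39, which was still near background. In each comparison the lower mean was under the filter level, so here too the differences are of RMA values, the intervals cover the spread between arrays alone, and no fold is given.

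Ifng differed from the other cytokines in that it was above both background levels in every population. It read 7.45 and 7.46 in nTreg, 8.08 and 8.05 in iTreg and 9.32 and 9.44 in ex-iTreg arrays. The order was nTreg, iTreg, ex-iTreg, with steps larger than the spread between pools. From nTreg to iTreg Ifng rose by 0.61 ± 0.07 (0.45 to 0.78; adjusted p = 0.00187, limma), 1.53-fold. From iTreg to ex-iTreg it rose by 1.31 ± 0.07 (1.14 to 1.48; adjusted p = 7.56e-05), 2.48-fold. Ex-iTreg arrays exceeded nTreg arrays 3.79-fold (1.92, 1.75 to 2.09; adjusted p = 8.99e-06).

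**Figure D2:**
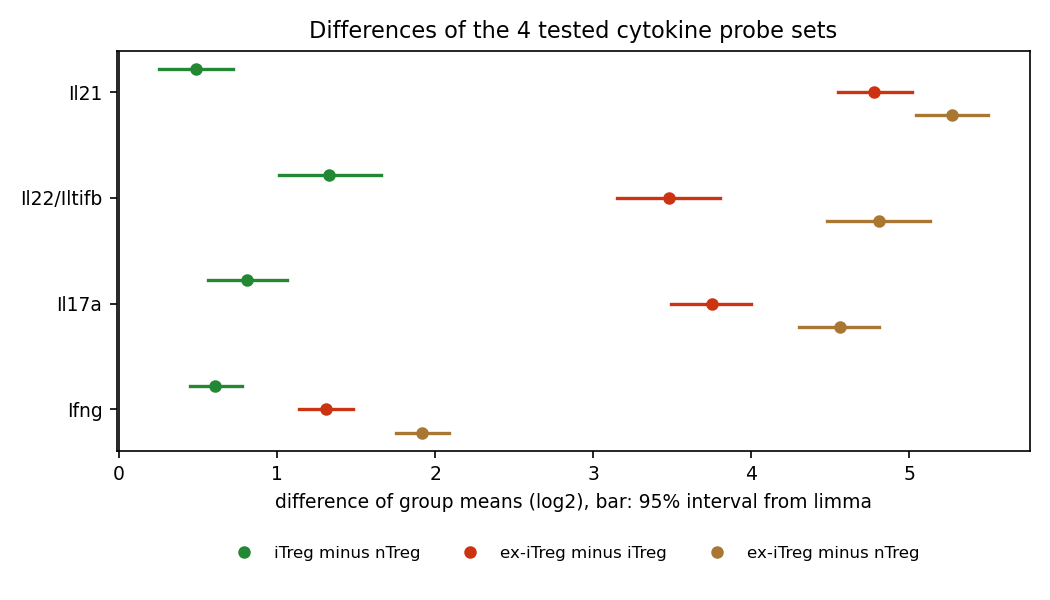
Differences of group means (x axis, log2) for the 4 tested cytokine probe sets, with 95% intervals from limma as bars. Colours mark the 3 comparisons; every interval lies above 0, and the Ifng intervals for ex-iTreg minus iTreg (1.14 to 1.48) lie below those of Il17a, Il22/Iltifb and Il21 (lowest bound 3.15).

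The remaining cytokines had no test because they did not pass the filter. Il4 read 3.75 and 4.13 in nTreg, 4.13 and 4.24 in iTreg and 5.25 and 4.94 in ex-iTreg arrays. Its nTreg and iTreg arrays met at 4.13, and its ex-iTreg arrays were the highest but under 5.48. Csf2 read 4.66 and 4.79 in nTreg, 4.96 and 4.65 in iTreg and 5.54 and 5.45 in ex-iTreg arrays. The nTreg values of Csf2 lay inside the iTreg range, and 1 ex-iTreg array was above the filter level. Il3 read 3.64 and 3.69, 3.91 and 3.85, and 3.92 and 3.51 in the same order of populations, and its ex-iTreg arrays spanned the other 4. A fit without the filter, in which the adjustment runs over all 45037 probe sets, called 7 cytokine probe sets higher in ex-iTreg than in iTreg arrays. The additions were Il4 (0.91, adjusted p = 0.00712), Csf2 (0.69, adjusted p = 0.00849) and Il21 1447288_at (0.44, adjusted p = 0.0161), all differences between readings at or near background; Il3 was not called (adjusted p = 0.482).

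Genes with profiles most like those of the cytokines were found by the root mean square difference over the 6 arrays after subtracting each probe set's own mean, among 19174 tested probe sets with a single gene symbol. Closest to Il17a were Pdlim4, a cytoskeletal adaptor protein (0.216), Atp8b4, a lipid-flippase family member (0.262), and Smoc2, a secreted calcium-binding protein (0.272). Pdlim4 rose from 4.74 and 5.56 in nTreg and iTreg arrays to a mean of 8.90 in ex-iTreg arrays, and Smoc2 from 3.24 and 3.48 to 7.72. Closest to Il21 were Smoc2 (0.33), Il17a (0.438) and Pdlim4 (0.627). Smoc2, like Il21, was near background in nTreg and iTreg arrays and passed the filter through its ex-iTreg arrays alone. Its likeness to Il21 therefore follows in part from the filter. The nTreg means of Pdlim4 (4.74) and Atp8b4 (5.13) were near background as well. Il22/Iltifb was closest to Il17a (0.274), then Pdlim4 (0.317) and Atp8b4 (0.344). Ifng had a smaller step from iTreg to ex-iTreg arrays and more even steps. Its nearest genes were different: Mboat1, a lipid acyltransferase (0.0617), Ehd3, an endocytic recycling protein (0.0683), and Dennd2d (0.107). These are likenesses over 6 arrays in 3 populations, and 403 tested probe sets were called at least 2-fold higher in ex-iTreg than in iTreg arrays.

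**Figure D3:**
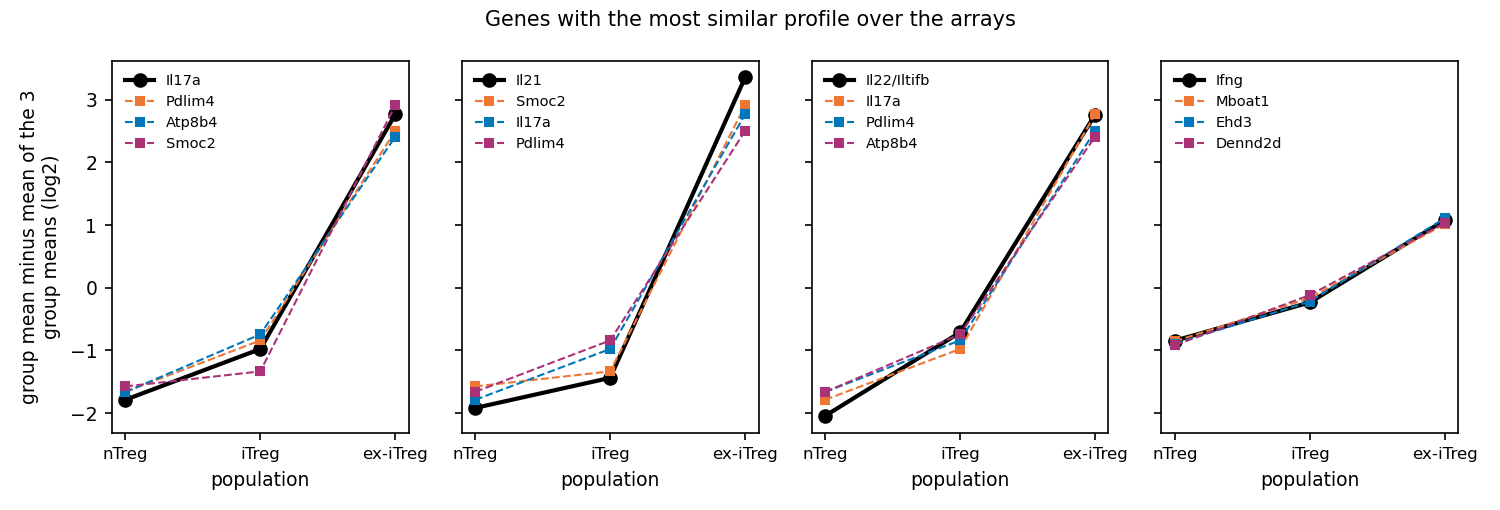
Group mean minus the mean of the 3 group means (y axis, log2) in each population for the 4 tested cytokine probe sets (black) and the 3 genes with the most similar array profiles (coloured, dashed). All 4 cytokine profiles rise from nTreg to iTreg (Il17a 0.81, Il21 0.49, Il22/Iltifb 1.33, Ifng 0.61) and step up more from iTreg to ex-iTreg arrays. The Ifng steps (0.61 and 1.31) are closer to each other in size, as are those of its nearest genes (difference of 0.107 or less).

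The cytokine genes lie in 4 chromosomal neighbourhoods, and their neighbours were read from the order of protein-coding genes in RefSeq, 8 on each side. Of 74 neighbours 67 had a probe set and 41 were tested. From iTreg to ex-iTreg, 9 were called higher and 12 lower, beside 15.6% and 21.0% of the 11024 tested genes. Rises of at least 1 were seen for 4 neighbours. On chromosome 3, Il2, the T cell growth factor gene next to Il21, read 4.36 and 4.57 in nTreg, 4.26 and 4.37 in iTreg and 7.69 and 7.81 in ex-iTreg arrays, a difference of 3.43 ± 0.10 (adjusted p = 9.46e-06, limma). Its nTreg and iTreg readings were under both background levels and it passed the filter through its ex-iTreg arrays alone, so this difference of RMA values is no fold change. The flanking genes Adad1, near background, and Cetn4, at 6.22 to 6.61, showed no such step; Cetn4 was not called (0.20, adjusted p = 0.175).

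On chromosome 11, the RefSeq order runs Septin8, Kif3a, Il4, Il13, Rad50, Il5, Irf1, Slc22a5, Slc22a21, Slc22a4, Pdlim4, P4ha2, Csf2, Il3 and Acsl6. Slc22a4, an organic cation transporter, read 3.93 to 4.14, also near background, in the nTreg and iTreg arrays and 7.74 and 7.71 in the ex-iTreg arrays (3.68 ± 0.08 over iTreg, adjusted p = 5.88e-06). Slc22a4 passed the filter through its ex-iTreg arrays alone, so its call too follows in part from the filter. Its neighbour Pdlim4 rose by 3.34 ± 0.07 (adjusted p = 5.4e-06) and Septin8, a cytoskeletal GTPase, by 1.06. Irf1, an interferon-induced transcription factor, fell by 1.03 from a mean above 12 (adjusted p = 0.00011). Among the cytokine genes of this neighbourhood, Il13 read 4.15 to 4.34 and Il5 3.85 to 4.13 in all arrays, near background like Il3. Il4 and Csf2 were higher in ex-iTreg than in iTreg arrays by 0.91 and 0.69, called in the fit without the filter, and their difference from the steps of Slc22a4 and Pdlim4 was not tested.

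On chromosome 10, Mdm1, Il22, Iltifb, Ifng and Dyrk2 follow each other. Mdm1 fell by 0.38 (adjusted p = 0.0426, limma) and Dyrk2, a protein kinase gene, rose by 0.70 (adjusted p = 0.00119). Dyrk2 was higher by 1.01 in ex-iTreg than in nTreg arrays, and Cpm, a carboxypeptidase gene 6 places from Il22, fell by 1.44 from iTreg to ex-iTreg arrays. On chromosome 1, 3 of the 4 tested neighbours of Il17a and Il17f were called lower, Mcm3 next to Il17f (-0.26), Tram2 (-0.38) and Tmem14a (-0.41). The calls of Mdm1 and Mcm3 were each lost when any of the 4 iTreg or ex-iTreg arrays was left out (adjusted p of 0.0613 to 0.188 and of 0.0662 to 0.12). The call of Tram2 was lost without iTreg replicate 1 or either ex-iTreg replicate (0.0686 to 0.0957), and that of Tmem14a without either iTreg replicate or ex-iTreg replicate 2 (0.0978 to 0.144), so without iTreg replicate 1 or ex-iTreg replicate 2 none of these calls held. Between iTreg and nTreg arrays 5 of the 41 tested neighbours were called higher and 5 lower, beside 16.4% and 12.6% of tested genes. In ex-iTreg against nTreg arrays 13 were called higher and 13 lower, beside 18.4% and 19.0%.

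**Figure D4:**
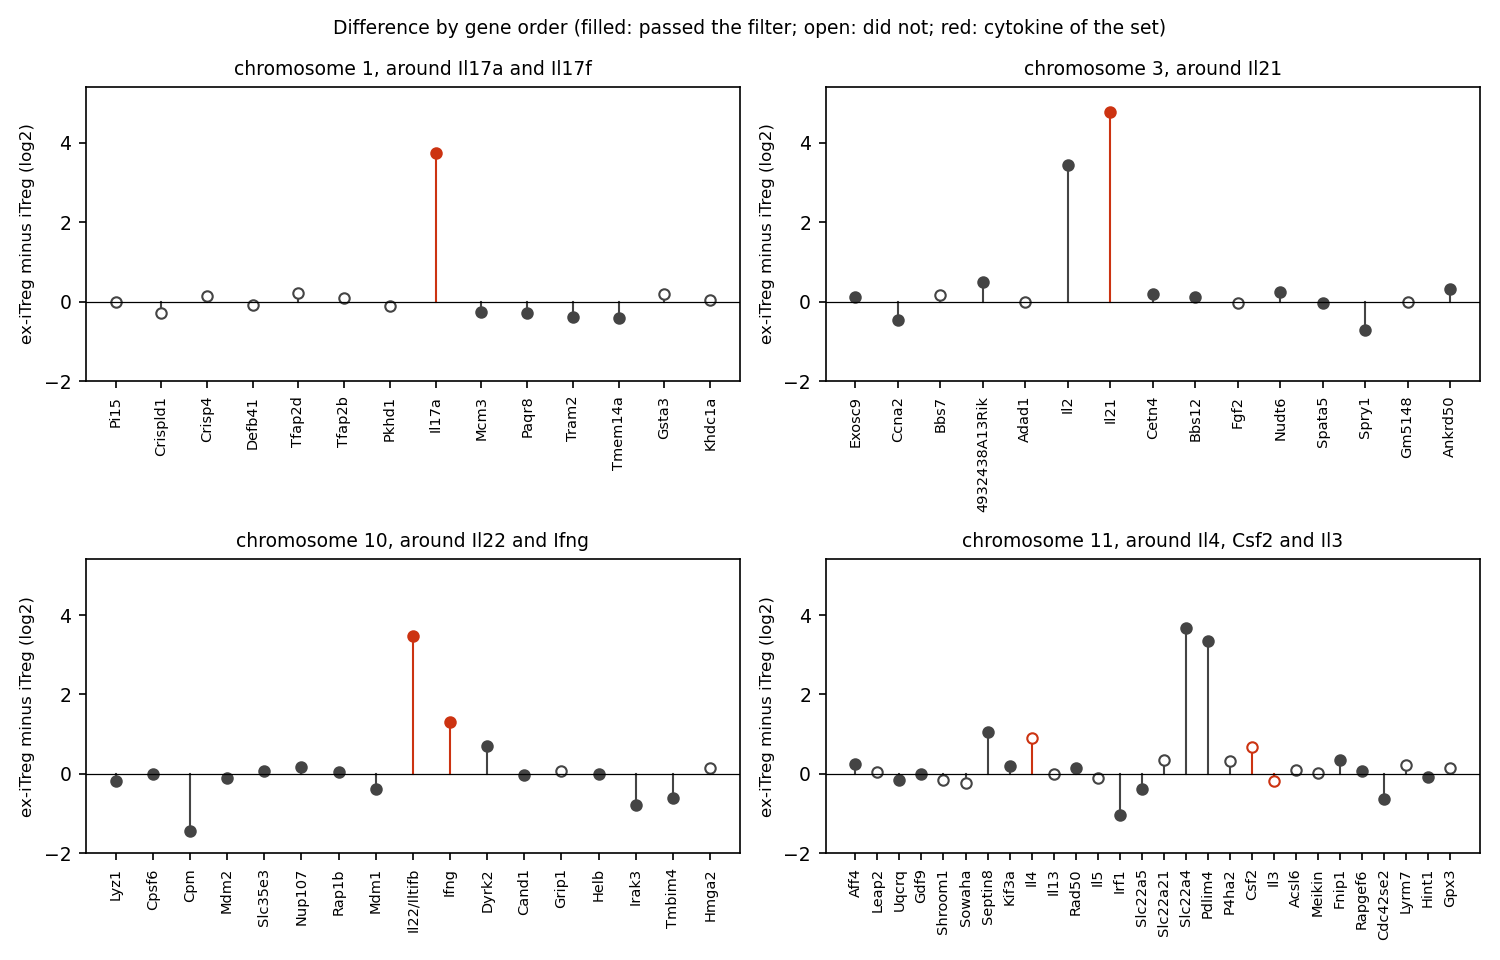
Ex-iTreg minus iTreg difference (y axis, log2) for the cytokine genes (red) and their neighbours with a probe set, in RefSeq gene order along 4 chromosomes (x axis, not to scale). Filled points passed the filter and open points did not; Il2 beside Il21 and Slc22a4 and Pdlim4 between Il4 and Csf2 stand out above 3, while most neighbours lie near 0.

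Other T cell cytokines, listed by general knowledge, went mostly the opposite way. Of 12 tested genes 1 rose from iTreg to ex-iTreg and 8 fell (median difference -0.41, against -0.02 over all 11024 tested genes). Over all those genes 15.6% were called higher and 21.0% lower. The 1 that rose was Il2. Il10, the anti-inflammatory cytokine of regulatory T cells, read 10.81 and 10.65 in nTreg, 9.76 and 9.83 in iTreg and 7.45 and 7.49 in ex-iTreg arrays, a difference of -2.33 from iTreg (adjusted p = 1.47e-05, limma). Also lower were Csf1, the macrophage growth factor (-3.16), Ebi3, a subunit of interleukin-27 and interleukin-35 (-2.34), Lta, encoding lymphotoxin alpha (-1.5), Osm (-0.76) and Tgfb1 (-0.51). The differences of Tnf (-0.27, adjusted p = 0.0453) and Ltb (-0.26, adjusted p = 0.0221) were the smallest called, and calls for Tnf, Ltb and Tgfb1 were each lost when single arrays were left out. Between iTreg and nTreg arrays 4 were called higher, Csf1, Lif, Ccl20 and Osm, and 2 lower, Il10 and Ebi3, where 16.4% and 12.6% of tested genes were called. The calls of Ccl20, Osm and Ebi3 in that comparison were lost in 6, 3 and 1 of the 6 leave-one-out fits. The Th2 cytokine genes Il5 and Il13, Il9, Il24, Il31, Il12a and Cd40lg were near background in every population.

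Among 23 tested transcription factor genes that control T cell lineages and cytokine genes, 6 rose and 9 fell from iTreg to ex-iTreg (median -0.12). Over all tested genes 15.6% were called higher and 21.0% lower. Eomes, a T-box factor that binds the Ifng locus, read 5.94 and 6.02 in iTreg and 7.95 and 7.64 in ex-iTreg arrays and rose by 1.81 (adjusted p = 0.000345, limma). Bcl6, the factor of follicular helper T cells, which make interleukin-21, rose by 1.53 (adjusted p = 4.12e-05), while its iTreg arrays stood below its nTreg arrays (-0.73). On its other tested probe set the rise was called (0.62), but iTreg and nTreg arrays did not differ (0.03, not called). Rora, a Th17 factor, rose by 0.53, but its highest values were those of the nTreg arrays, 12.48 and 12.47, from which it fell by 1.19 to the iTreg arrays. Tbx21, encoding the Th1 factor T-bet, rose by 0.46 (adjusted p = 0.0104). The call of Tbx21 was lost without iTreg replicate 1 (adjusted p = 0.0536) or ex-iTreg replicate 2 (adjusted p = 0.0674). Nfatc2 and Runx3 rose by 0.33 and 0.32, with calls lost in 3 and 4 of the leave-one-out fits.

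The regulators that fell were led by Prdm1, encoding Blimp-1, a repressor of interleukin-2 and follicular helper genes. Prdm1 read 9.58 and 9.53 in nTreg, 8.78 and 8.75 in iTreg and 6.72 and 6.59 in ex-iTreg arrays, and fell by 2.11 from iTreg to ex-iTreg (adjusted p = 1.52e-05, limma). Its relation to the cytokine differences was not tested. Ikzf3 (-1.34), Zbtb32 (-1.19), Irf4, needed for Th2 and Th17 differentiation (-0.82), and Stat6, which signals for interleukin-4 (-0.58), fell as well. Gata3, the Th2 factor, read 9.88 and 10.05 in iTreg and 9.20 and 9.15 in ex-iTreg arrays, a difference of -0.78 (adjusted p = 0.000749). Runx1 (-0.51), Stat3 (-0.44) and Stat5b (-0.33) also fell, the call of Stat5b being lost without ex-iTreg replicate 2 (adjusted p = 0.0618). Maf, Batf and Ahr, factors of Il21, Il17a and Il22 expression in helper T cells, were not called from iTreg to ex-iTreg, with differences of -0.18, -0.12 and -0.16. Other probe sets of Maf were called in both directions there, so its direction is not settled. Against nTreg arrays all were called lower in ex-iTreg arrays (-0.26, -0.58 and -0.96), the Maf call being lost when single arrays were left out. In that comparison 6 of 23 regulators were called higher and 14 lower, beside 18.4% and 19.0% of tested genes. With single arrays left out these counts fell to as few as 4 and 11. Between iTreg and nTreg arrays 3 regulators were called higher and 9 lower, beside 16.4% and 12.6% of tested genes. With single arrays left out these counts fell to as few as 1 and 6. The calls of Stat4 and Stat5a were lost whichever array was left out, those of Gata3, Zbtb32 and Stat6 in 5, 3 and 2 of the 6 fits.

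**Figure D5:**
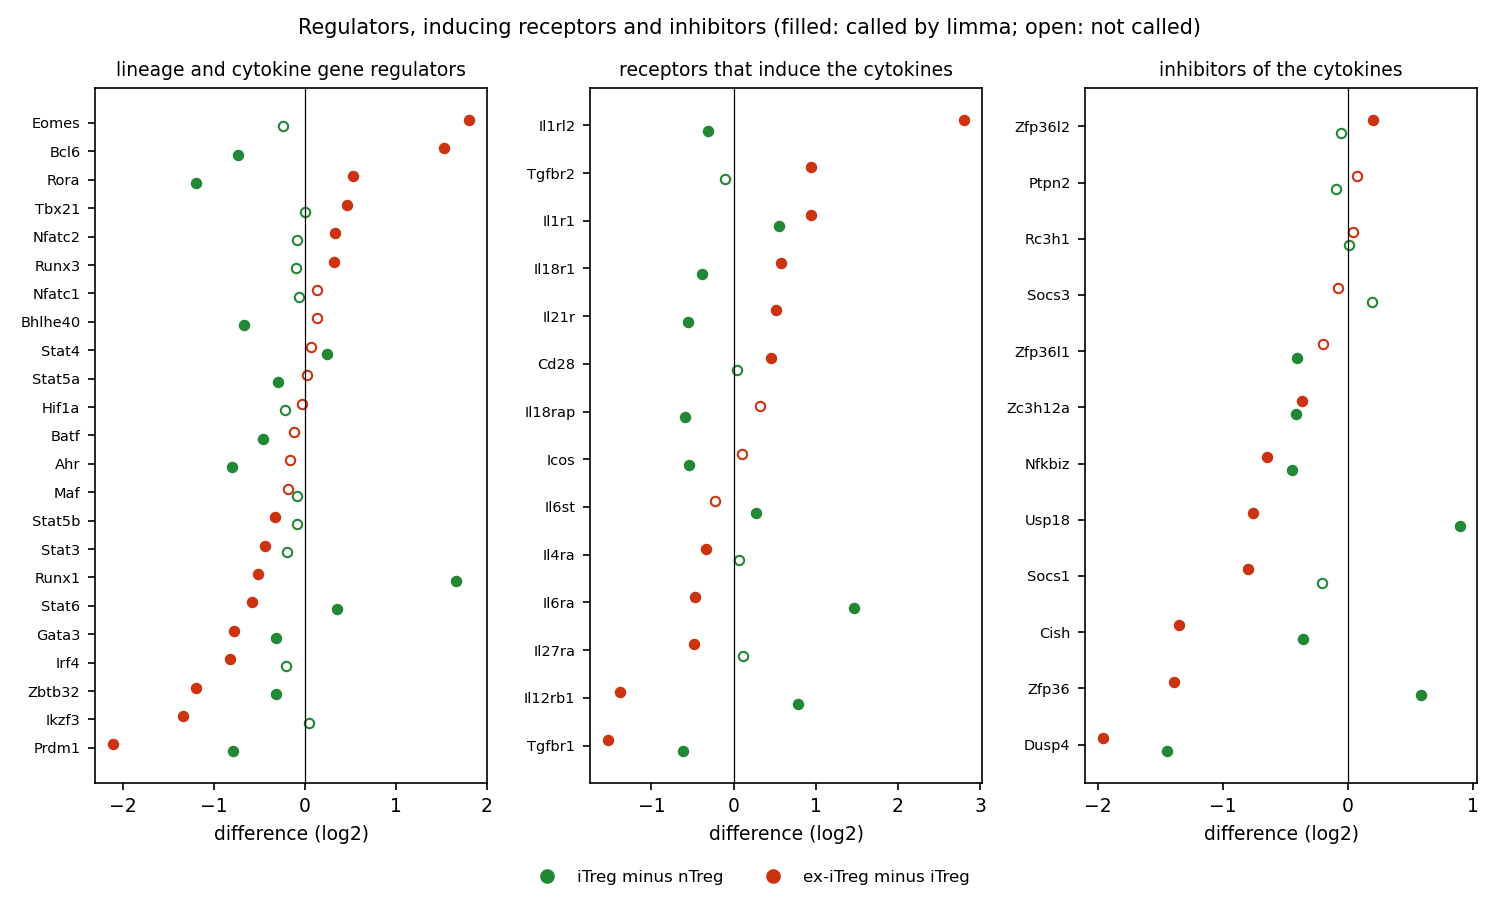
Differences (x axis, log2) of regulators, cytokine-inducing receptors and inhibitors between iTreg and nTreg arrays (green) and between ex-iTreg and iTreg arrays (red). Filled points were called by limma and open points were not; Eomes (1.81) and Il1rl2 (2.81) are the highest red points of the first panels, and Prdm1 (-2.11) and Dusp4 (-1.96) are the lowest of the first and last.

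Receptors whose signals induce these cytokines split about evenly. Of 14 tested genes 6 rose and 5 fell from iTreg to ex-iTreg (median 0.21), beside 15.6% and 21.0% of all tested genes. Il1rl2, the interleukin-36 receptor gene, read 3.86 to 4.26 in the nTreg and iTreg arrays, near background, and 6.78 and 6.73 in the ex-iTreg arrays (2.81 higher than iTreg, adjusted p = 9.46e-06, limma). It passed the filter through its ex-iTreg arrays alone, so its call follows in part from the filter. Il1r1, the interleukin-1 receptor of Th17 cells, read 6.88 and 6.84 in nTreg, 7.25 and 7.57 in iTreg and 8.39 and 8.32 in ex-iTreg arrays, and so stepped up in the same order as Il17a. Tgfbr2 rose by 0.94, Il18r1, which acts with interleukin-12 on Ifng, by 0.58 and Cd28, the co-stimulatory receptor, by 0.45. Tgfbr1 fell by 1.53 while its partner Tgfbr2 rose. Il12rb1, the chain shared by the interleukin-12 and interleukin-23 receptors, fell by 1.38 (adjusted p = 0.000128). Il27ra (-0.48), Il6ra (-0.47) and Il4ra (-0.33) also fell. The call of Il6ra was lost without iTreg replicate 2 (adjusted p = 0.0684) or ex-iTreg replicate 2 (adjusted p = 0.0793), and that of Il4ra in 3 of the leave-one-out fits. Il12rb2 was near background in every population, and Il23r had no probe set of its own symbol.

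Of 10 tested receptors of the cytokines themselves, 4 were higher in ex-iTreg than in iTreg arrays (median of the 10, 0.17): Il17rc (0.63), Ifngr2, the signalling chain of the interferon gamma receptor (0.61), Il21r (0.52) and Il17ra (0.25). In that comparison 15.6% of all tested genes were called higher and 21.0% lower. The calls of Il21r and Il17ra were lost in 2 and 4 of the leave-one-out fits. Lower were Il10rb, which pairs with Il22ra1 for interleukin-22 (-0.68), Il3ra (-0.47) and Il4ra (-0.33). Il22ra1 itself was near background in all 3 populations, and Csf2ra and Csf2rb were not called (0.16 and -0.40). The nTreg arrays had 9.13 and 8.89 for Il21r, close to the ex-iTreg arrays at 9.04 and 8.92 (-0.03, adjusted p = 0.851). Between iTreg and nTreg arrays 1 receptor was called higher and 3 lower, beside 16.4% and 12.6% of tested genes. The calls of Il17ra, Il21r and Il3ra in that comparison did not hold in every leave-one-out fit.

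Inhibitors of cytokine production or signalling were lower in ex-iTreg than in iTreg arrays for 7 of 12 tested genes and higher for 1 (median -0.51). Of all tested genes 21.0% were called lower and 15.6% higher. Dusp4, a phosphatase that limits MAP kinase signals, read 12.62 and 12.61 in nTreg, 11.16 and 11.18 in iTreg and 9.17 and 9.26 in ex-iTreg arrays, a difference of -1.96 from iTreg (adjusted p = 1.39e-05, limma). Zfp36, which binds cytokine mRNAs and speeds their decay, fell by 1.39, having been higher by 0.58 in iTreg than in nTreg arrays. Cish, a suppressor induced by interleukin-2 signals (-1.35), Socs1 (-0.80), Usp18 (-0.76), Nfkbiz (-0.65) and Zc3h12a, an mRNA-decay nuclease (-0.37), fell too, Zc3h12a losing its call in 3 of the leave-one-out fits. Nfkbiz is also known to promote Il17a in Th17 cells, so its place in this list is not clear-cut. The 1 called higher, Zfp36l2 (0.20, adjusted p = 0.0431), lost its call whichever array was left out. Il22ra2, the soluble interleukin-22 binding protein, and Twist1 were near background in all populations. Probe sets disagreed for some genes named as called between ex-iTreg and iTreg arrays: none of the other tested probe sets of Nfatc2, Runx3, Irf4, Stat5b, Tgfb1, Il4ra, Il6ra, Il10rb, Ifngr2, Zc3h12a and Zfp36l2 was called. Against nTreg arrays 7 inhibitors were lower in ex-iTreg arrays, where 19.0% of tested genes were called lower and 18.4% higher.

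Markers of cells other than CD4 T cells were read beside the cytokines, since innate lymphoid, gamma delta T, CD8 T and NK cells can also make Il17a, Il22 or Ifng, and mast cells and basophils make Il4. The sort used CD4, with Thy1.1 for iTreg and ex-iTreg cells, and its purity was not tested. Of 8 tested CD8 T and NK markers, 5 were higher in ex-iTreg than in iTreg arrays and 2 lower: Klrk1 (3.14), Klrd1 (3.01), Eomes (1.81), Klrc1 (1.80) and Cd8a (0.33) against Cd8b1 (-0.75) and Prf1 (-0.28). Of all tested genes 15.6% were called higher and 21.0% lower in this comparison. Klrk1 and Klrc1 were near background in nTreg and iTreg arrays, so their calls may follow in part from the filter and their differences are no fold changes. The calls of Cd8a and Prf1 were lost in 4 and 3 of the leave-one-out fits. The mean log2 level of the 11 measured was 5.49 to 5.53 in nTreg, 5.47 to 5.51 in iTreg and 6.30 to 6.35 in ex-iTreg arrays. The NK receptor genes Ncr1, Klra8 and Klre1 were near background everywhere, and Cd8b1 was near background in ex-iTreg arrays. Of 15 gamma delta T and innate lymphoid markers 7 were measured, without any gamma delta receptor gene, and 6 were tested. Id2, Kit and Il7r were called higher and Nfil3 lower in ex-iTreg than in iTreg arrays. Of 11 measured mast cell and basophil markers 8 were near background in all 3 populations, Fcer1a, Ms4a2, Cpa3, Mcpt8, Mcpt4, Tpsb2, Tpsab1 and Cma1, as was Il4. Of the 3 tested, Kit and Hdc were called higher in ex-iTreg than in iTreg arrays (1.23 and 0.35) and than in nTreg arrays (0.50 and 0.39). Against nTreg arrays 18.4% of all tested genes were called higher. The calls of Hdc over iTreg and of Kit over nTreg were lost in 4 and 5 of the leave-one-out fits, and that of Hdc over nTreg in 2.

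Of 19 tested myeloid markers 15 were called higher in iTreg than in nTreg arrays (16.4% of all tested genes), and 17 were called lower in ex-iTreg than in iTreg arrays (21.0% of all). Cybb, Ctss and Itgam, the last near background everywhere, had their highest means in nTreg arrays. The mean log2 level of the 20 measured was 8.13 to 8.16 in nTreg, 8.90 to 8.93 in iTreg and 8.26 to 8.27 in ex-iTreg arrays. C1qb, a complement gene of macrophages, read 7.37 and 6.97, 9.15 and 9.22, and 7.56 and 8.03 in the 3 populations. Among the T cell cytokines, Csf1 was also highest in iTreg arrays (8.67 and 8.62, 9.57 and 9.51, 6.38 and 6.38), whereas the called effector cytokines were highest in ex-iTreg arrays. Of the 5 tested B cell markers 3 were lower in ex-iTreg than in iTreg arrays, beside 21.0% of all tested genes. The part of these markers in the cytokine differences was not tested.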

How the data were processed

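Total RNA of 6 pools was hybridised to Affymetrix Mouse430_2 arrays. The deposited values are log2 expression, which per the submitters' processing notes the authors obtained by RMA; its software and the genome build were not given in the sources used here. Gene names came from the platform annotation (34945 probe sets with 1 symbol, 932 with several, 9160 with none; 34741 matched RefSeq by Entrez identifier), and RefSeq, GRCm38.p6, gave gene order and promoter windows. Controls (64 of 45101 probe sets) were left out, and naive conventional T cells were not analysed here.

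Differences came from lmFit and eBayes of limma 3.58.1 (R 4.3.3; 1 mean per group, all 6 arrays, 3 residual and 3.37 prior degrees of freedom), adjusted by Benjamini-Hochberg over the 23505 tested probe sets, threshold 0.05. With 2 arrays in each group, the smallest two-sided exact p is 0.33, so calls rest on limma's pooled spread. The number of arrays limits the precision. The script was tested on simulated data.

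The cytokines and the gene lists were chosen with earlier results of these data known. Named were all cytokine probe sets, up to 6 called genes per list and comparison by size of difference (all where 5 or fewer), neighbours called with a difference of at least 1, and the 3 nearest profiles; other genes were named after their values were seen. Genes with several probe sets were read from the brightest on average. Alternatives covered the filter, the normalisation, the variance model, a replicate block, the groups fitted, leaving out each array, the background level and the probe set rule.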

Additional observations from a re-analysis of the deposited data

How the results depend on the processing

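For the 4 tested cytokine probe sets, direction and call held under all 13 alternatives in each comparison, except Il21 between iTreg and nTreg arrays, which lost its call in the 2 fits named in the report. Not all 13 alternatives are distinct. In each comparison, fitting only the groups compared gave the same values as leaving out either array of the third group. Counts of leave-one-out fits include such repeats. Without the filter 7 cytokine probe sets were called in ex-iTreg against iTreg arrays and 7 in ex-iTreg against nTreg arrays, in place of 4. Leaving out single arrays gave 3 to 4 called cytokine probe sets for iTreg minus nTreg and 4 to 4 for the other comparisons. Over all probe sets it gave 3416 to 5376 calls in place of 6825 for iTreg minus nTreg, 4968 to 9102 in place of 8690 for ex-iTreg minus iTreg, and 5243 to 7923 in place of 8561 for ex-iTreg minus nTreg. The count for iTreg minus nTreg moved by over 1.5 times without iTreg replicate 1 (4004) or 2 (3416), that for ex-iTreg minus iTreg without iTreg replicate 2 (5711) or ex-iTreg replicate 1 (5266) or 2 (4968), and that for ex-iTreg minus nTreg without ex-iTreg replicate 1 (5243) or 2 (5306); a fit of 5 arrays has less to estimate the spread from. Between iTreg and nTreg arrays the balance was 2974 higher and 2184 lower without nTreg replicate 1, and 2031 higher and 2913 lower without nTreg replicate 2.

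With the pool number as a replicate block, 5854, 8006 and 7807 probe sets were called in the 3 comparisons and 4 cytokine probe sets in each. Deviations of same-numbered arrays correlated at -0.00638, -0.0886 and -0.0402, so the numbers were not taken to pair the samples. Using the mean of a gene's probe sets turned the sign of 0 of 120 list genes in each comparison and ended 1, 8 and 4 calls, Runx3, Nfatc2, Il4ra, Il6ra, Stat5b, Zc3h12a, Zfp36l2 and Cd8a among them for ex-iTreg minus iTreg. Limits: Il17f has no value, Il22 shares its probe set with Iltifb, means near background carry no reliable fold, and 2 arrays per group leave every call to the spread that limma pools.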
